A study of Mus musculus with 4 samples.

Results

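The genes described here are 8 genes of cholesterol synthesis, chosen by name: the enzyme genes Hmgcs1, Mvd, Idi1, Fdft1, Sqle, Lss and Cyp51, and Srebf2, which encodes their transcription factor. All 8 were found among the 49997 genes of the deposited count tables, and all 8 passed the filter on low counts that left 19837 genes to test. None of the 8 is an uptake gene, so receptors and other uptake genes were read from a separate list of 56 further genes of sterol and lipid metabolism. The RNA came from explants of the AGM, the aorta-gonad-mesonephros region of the embryo where the first blood stem cells form, of C57BL/6J mouse embryos of stages E10.5 and E11.5. Every explant was kept on a filter for 48 hours in a medium with hydrocortisone. The 2 untreated libraries carry no other agent or vehicle in their labels, and the 2 CCCP libraries came from explants given 5 µM of CCCP, an uncoupler that carries protons across the inner mitochondrial membrane. The comparison asks which transcripts differ between CCCP-treated and untreated explants. Mitochondrial activity itself is not measured by these counts. The labels do not say whether the libraries of a group came from separate litters or cultures, so p-values measure only the spread between these libraries, which may be technical.

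Cholesterol is built from acetyl-CoA. Enzymes of the mevalonate pathway make the isoprenoid units, which are joined to squalene, closed into the sterol ring and trimmed to cholesterol. SREBP-2, the product of Srebf2, is held in the endoplasmic reticulum by SCAP and INSIG proteins while sterols are plentiful. When sterols are scarce it is carried to the Golgi, cut by the S1P and S2P proteases and sent to the nucleus, where it turns on genes of synthesis and of uptake. The enzymes of the pathway are therefore known for rising and falling together with the sterol supply. In embryos cholesterol is also needed for Hedgehog signalling and as the raw material of steroid hormones.

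The promoters of 3 of the genes are shown because their log2 fold changes differed in sign or because the gene encodes the factor itself. None of the 8 passed an adjusted p of 0.05 in edgeR. Mvd had the largest log2 fold change of the 8, Hmgcs1 was lower in both CCCP libraries, and Srebf2 encodes SREBP-2. Idi1 had the lowest log2 fold change (-0.32), and its promoter, which lacks the SRE core described below, is not shown. Each sequence is the 250 bases before the start of the gene, 5′ to 3′ on the strand of the gene, from the RefSeq promoter table on GRCm38.p6, in which 6 of the 8 genes were found. Capitals mark the CCAAT box (CCAAT or, on the other strand, ATTGG), which the factor NF-Y binds, and the core of a sterol regulatory element (SRE; CACCCC or GGGGTG), which SREBPs bind.
Mvd, chr8:122443423-122443672, minus strand: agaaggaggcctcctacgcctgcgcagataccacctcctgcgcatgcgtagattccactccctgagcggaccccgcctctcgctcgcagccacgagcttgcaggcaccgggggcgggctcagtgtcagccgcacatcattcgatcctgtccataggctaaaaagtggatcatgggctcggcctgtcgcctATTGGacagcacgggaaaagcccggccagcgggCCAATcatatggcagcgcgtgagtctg
Hmgcs1, chr13:119690101-119690350, plus strand: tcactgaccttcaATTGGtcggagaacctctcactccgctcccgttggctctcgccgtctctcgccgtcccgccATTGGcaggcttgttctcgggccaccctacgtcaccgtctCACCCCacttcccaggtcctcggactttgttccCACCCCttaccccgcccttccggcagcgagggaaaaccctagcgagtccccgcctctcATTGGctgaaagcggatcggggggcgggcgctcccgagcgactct
Srebf2, chr15:82147019-82147268, plus strand: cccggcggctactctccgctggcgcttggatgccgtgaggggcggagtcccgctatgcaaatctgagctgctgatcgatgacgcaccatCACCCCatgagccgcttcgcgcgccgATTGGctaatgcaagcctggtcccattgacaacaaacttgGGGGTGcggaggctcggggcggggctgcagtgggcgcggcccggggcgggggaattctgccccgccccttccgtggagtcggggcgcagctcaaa
The CCAAT box was found in all 6 promoters (Hmgcs1, Mvd, Idi1, Lss, Cyp51 and Srebf2), at 1 to 3 places each, and in 33.8% of the 32851 promoters of the table read over the same length. The SRE core was found in 2 of the 6, Hmgcs1 and Srebf2, and in 23.3% of all promoters. Hmgcs1 and Srebf2 held 2 copies of it each, and those of Hmgcs1 began 136 and 103 bases before the start. GGGCGG or CCGCCC, the GC box of Sp1, was found in all 6 and in 32.7% of all promoters. These matches describe letters and not binding, which was not measured here.

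The libraries held 37360968 to 48827826 counted reads, and Pearson's r of log2 CPM between the 2 libraries of a group was at least 0.978 across genes. Chi-square per degree of freedom, near 1 where libraries differ by counting alone, was 59.1 between the untreated and 38.8 between the CCCP libraries. The source of that spread was not tested. CPM here is a count scaled to library size with TMM factors, which ran from 0.966 to 1.04. Hepatic marker genes had lower levels under CCCP. Their summed level was 1793 and 1020.04 CPM without treatment and 53.2 and 109.5 CPM under CCCP. All 11 of 11 markers were lower in both CCCP libraries (24.8% of all genes tested), with Ahsg and Fga at 0 counts in CCCP replicate 1. In edgeR 0 of the 11 passed an adjusted p of 0.05 (smallest 0.133), as did 0% of all genes tested. DESeq2 called 7 of the 11, all lower, against 3.32% of the genes to which it gave an adjusted p. Liver is a main site of cholesterol synthesis, and the part of hepatic cells in the levels below was not tested. In such bulk tissue, fewer cells of a type and less RNA per cell cannot be told apart. The summed level was higher in both CCCP libraries for the erythroid list (345 to 407 against 479 to 559 CPM), the macrophage list (117 to 171 against 173 to 178) and the neural list (733 to 744 against 778 to 889). It was lower in both for the blood progenitor list (159 to 166 against 124 to 138). The endothelial list (363 to 473 against 359 to 363), the mesenchymal list (2974 to 5299 against 3408 to 4467) and the steroidogenic list (11.3 to 15.5 against 10.3 to 17.9) overlapped. The labels speak both of stem cells and of RNA from explants. Gfi1, a transcription factor of emerging stem cells, had only 4 to 12 counts per library, while Kit had 47.6 to 63.2 CPM.

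None of the 8 genes passed an adjusted p of 0.05 in edgeR's quasi-likelihood test, in which 0% of all genes tested passed. The 8 genes did not share a direction. Of the 8 genes, 6 had a log2 fold change (CCCP over untreated) above 0 and 2 below, from 0.60 for Mvd to -0.32 for Idi1, with a median of 0.08 against -0.01 over all genes tested. At an unadjusted p under 0.05 there was 1 gene of the 8, Mvd, where 14.6% of all genes tested (2899) reached that level. DESeq2 called 0 of the 8, against 3.32% of the genes to which it gave an adjusted p (594 genes). The groups did not overlap for 7 of the 8 genes (48.8% of all genes tested). Among them 5 were higher in both CCCP libraries (24%) and 2 lower (24.8%). Only for Lss did the groups overlap.

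**Figure D1:**
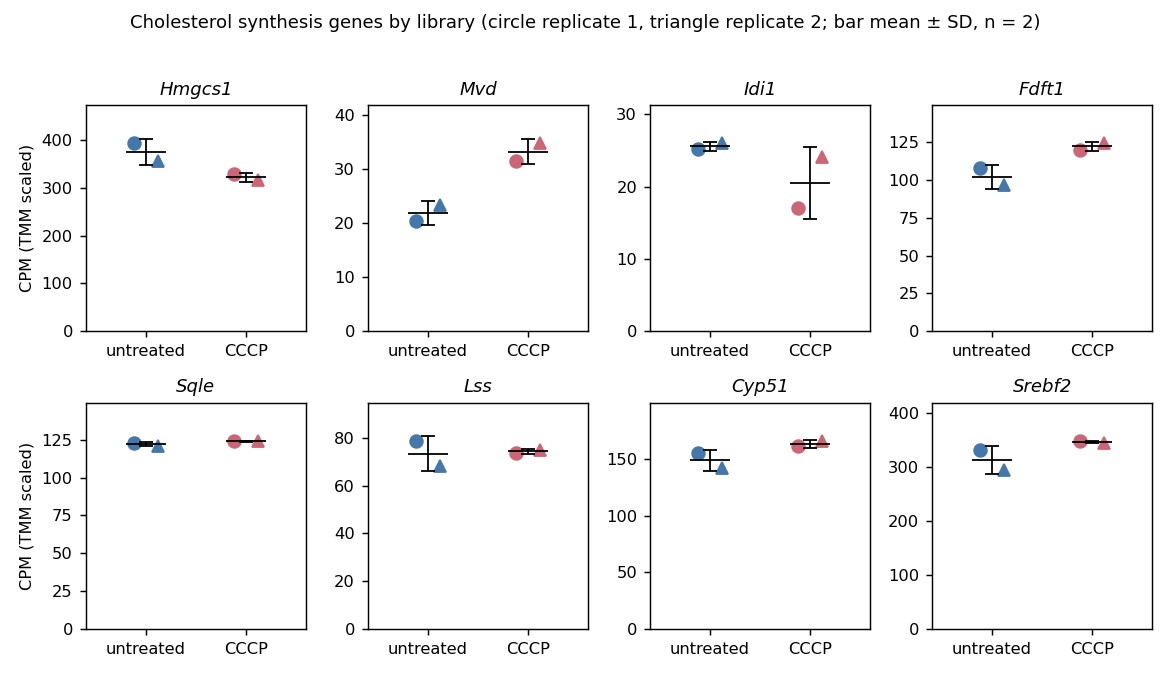
Level of each of the 8 genes in CPM (TMM scaled, linear axis from 0) in the 2 untreated (blue) and 2 CCCP (red) libraries, with the mean and SD of each group. Mvd stands higher in both CCCP libraries (31.6 and 34.8 CPM against 20.3 and 23.5), Hmgcs1 lower, and Sqle and Lss at nearly the same level in both groups.

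Compared per kilobase of exon, the 8 transcripts fell into an order that was mostly the same in the 4 libraries. Hmgcs1 was the most abundant, at 102 ± 7.24 CPM per kb in the untreated libraries (SD, n = 2), above 97.9% of all genes tested. Srebf2 followed at 55.6 ± 4.50, Sqle at 44.4 ± 0.462 and Cyp51 at 34.2 ± 2.10 CPM per kb (SD, n = 2). Each of these lay above the next in both untreated libraries. The low end held Mvd (11.7 ± 1.18), Lss (10.7 ± 1.09), Fdft1 (9.89 ± 0.766) and Idi1 (8.92 ± 0.214 CPM per kb, SD, n = 2). On this scale Mvd and Lss, and Lss and Fdft1, overlapped between the untreated libraries. The lengths include bases shared with other genes, and reads that touch both genes were not counted. Such bases are 642 of 1864 in Mvd, 381 of 6863 in Lss and 774 of 10331 in Fdft1. The levels of these genes, Mvd above all, may therefore be understated. Their order without the shared bases was not tested. In the CCCP libraries Mvd stood at 17.8 ± 1.24 CPM per kb (SD, n = 2) and the order of the last 4 was Mvd, Fdft1, Lss, Idi1, each above the next in both libraries. Idi1 was the last of the 8 in every library.

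Hmgcs1 encodes the cytosolic HMG-CoA synthase, an early enzyme of the mevalonate pathway. It lies on chromosome 13, 119690351 to 119708260, plus strand (mm10). Its level was 394 and 357 CPM in untreated replicates 1 and 2, and 329 and 316 CPM in CCCP replicates 1 and 2. Both CCCP libraries were lower than both untreated ones, and the nearest libraries of the 2 groups (357 and 329 CPM) lay closer together than the 2 untreated libraries did. The log2 fold change was -0.22 (standard error 0.127, 95% interval -0.53 to 0.09), and the adjusted p of edgeR was 0.463. Once the trend of each library with GC content was removed it stood at -0.03. GC content is 43.1% in Hmgcs1, and over all genes tested, log2 fold changes were higher in genes of higher GC content (Spearman's rho 0.374, across genes, which are not replicates).

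Mvd encodes mevalonate diphosphate decarboxylase, which makes isopentenyl diphosphate, the isoprenoid unit. It lies on chromosome 8, 122433596 to 122443422, minus strand. Its level was 20.3 and 23.5 CPM without treatment and 31.6 and 34.8 CPM under CCCP, on 877 to 1532 counts. No overlap was seen, and each CCCP library stood above the untreated library of the same number by a similar amount (0.63 and 0.57 on the log2 scale). The log2 fold change was 0.60, or 1.52-fold (standard error 0.150, 95% interval 0.24 to 0.97). Its unadjusted p ranked 610 of the 19837 genes, and the adjusted p was 0.218 in edgeR and 0.0543 in DESeq2. The value was 0.47 with the length trend and 0.43 with the GC trend removed, on an exon length of 1864 bases and a GC content of 59.0%. Of those exon bases 642 are shared with Gm51557, a predicted transcript of the opposite strand, and reads that touch both genes were not counted. Gm51557 itself had 41 and 20 counts in the untreated and 14 and 9 counts in the CCCP libraries, so reads of its own were few.

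Idi1 encodes isopentenyl-diphosphate isomerase, which converts that unit into its reactive isomer. It lies on chromosome 13, 8885606 to 8892396, plus strand. Its level was 25.2 and 26.0 CPM without treatment and 17.0 and 24.04 CPM under CCCP. CCCP replicate 1 was well below the other 3 libraries, and CCCP replicate 2 was close to the untreated pair. The log2 fold change of -0.32 (standard error 0.201, 95% interval -0.81 to 0.17, edgeR adjusted p 0.491) was -0.08 without CCCP replicate 1 and -0.58 without CCCP replicate 2. It therefore rested on 1 library, and it was also -0.08 with the GC trend removed.

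Fdft1 encodes squalene synthase, the first enzyme committed to sterols, on chromosome 14, 63145150 to 63181687, minus strand. Its level was 107.8 and 96.6 CPM without treatment and 120.0 and 124 CPM under CCCP. Both CCCP libraries were the higher ones, with a log2 fold change of 0.26 (standard error 0.117, 95% interval -0.03 to 0.54, edgeR adjusted p 0.370). At 10331 exon bases it is the longest of the 8, and the value was 0.53 with the length trend removed. It shares 774 exon bases with Ctsb, a lysosomal protease gene on the other strand, whose log2 fold change was 0.28. Reads lying in Ctsb alone do not enter the count of Fdft1.

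Sqle encodes squalene epoxidase, a rate-controlling enzyme of the pathway, on chromosome 15, 59315092 to 59331193, plus strand. Its level was 123 and 121 CPM without treatment and 124 and 124 CPM under CCCP. The 4 libraries were nearly level, with a log2 fold change of 0.03 (standard error 0.107, 95% interval -0.24 to 0.29, edgeR adjusted p 0.932). Its sign was below 0 without library scaling, with a stricter count filter and with the length trend removed.

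Lss encodes lanosterol synthase, which closes the sterol ring, on chromosome 10, 76531565 to 76557139, plus strand. Its level was 78.8 and 68.2 CPM without treatment and 73.8 and 75.1 CPM under CCCP. The CCCP libraries lay between the untreated ones, with a log2 fold change of 0.02 (standard error 0.123, 95% interval -0.28 to 0.32, edgeR adjusted p 0.958). The sign was below 0 without library scaling, with the stricter filter and without untreated replicate 2. It shares 381 exon bases with 4930483K19Rik on the other strand, a gene with 2 to 19 counts.

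Cyp51 encodes lanosterol demethylase, which begins the trimming of the ring, on chromosome 5, 4080674 to 4104697, minus strand. Its level was 155 and 143 CPM without treatment and 161 and 166 CPM under CCCP. Both CCCP libraries were the higher ones by less than the gap between the untreated libraries, with a log2 fold change of 0.13 (standard error 0.114, 95% interval -0.14 to 0.41, edgeR adjusted p 0.604).

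Srebf2, the gene of the factor, lies on chromosome 15, 82147269 to 82205379, plus strand. Its level was 330.0 and 294 CPM without treatment and 348 and 344 CPM under CCCP. The CCCP libraries were alike and above both untreated ones, which differed from each other by more than the groups were apart. The log2 fold change was 0.15 (standard error 0.127, 95% interval -0.16 to 0.46, edgeR adjusted p 0.604), and it was -0.01 with the GC trend removed, on a GC content of 57.9%. SREBP-2 is controlled mainly by cutting of the protein, which these counts do not measure.

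The other 14 sterol synthesis enzymes were read as a list, and none passed in edgeR or in DESeq2. Of the 14, 10 had a log2 fold change above 0 and 4 below, with a median of 0.16. Both CCCP libraries were the higher ones for 7 of the 14 (24% of all genes tested), and for 0 the lower (24.8%). The smallest unadjusted p-values belonged to Mvk and Fdps. Mvk encodes mevalonate kinase and had 25.9 and 26.3 CPM without treatment and 36.5 and 36.2 CPM under CCCP. Its libraries agreed closely within each group, and the log2 fold change was 0.48 (standard error 0.124, edgeR adjusted p 0.227). For Mvk the value was 0.34 with the length trend and 0.33 with the GC trend removed. Fdps encodes farnesyl diphosphate synthase and had 85.5 and 91.7 CPM against 104 and 124 CPM. Its log2 fold change was 0.36 (standard error 0.133, edgeR adjusted p 0.310). For Fdps the value was 0.21 with the length trend and 0.30 with the GC trend removed.

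Placed in the order of the pathway, the first steps were the most spread. These further genes are named for their place and not by a rule on their values. Acat2, which joins the first acetyl-CoA units, had a log2 fold change of 0.41, and Pmvk, the kinase between Mvk and Mvd, 0.22. Mvk, Pmvk and Mvd, which act one after the other, thus stood higher in both CCCP libraries, while Hmgcs1 and Idi1 stood lower. Exons of Mvk, Pmvk, Mvd and Fdps are short, at 1776, 1949, 1864 and 1461 bases, against 3676 for Hmgcs1. Over all genes tested, the median difference was 0.22 (log2) in the shortest 10% and -0.35 in the longest 10%. GC content is 56.3% in Mvk, 57.0% in Pmvk and 59.0% in Mvd, against 43.1% in Hmgcs1 and 41.9% in Idi1. With the GC trend removed, Mvk stood at 0.33, Mvd at 0.43, Hmgcs1 at -0.03 and Idi1 at -0.08. The part of exon length or GC content in the order was not tested beyond the values with those trends removed. Among the late steps Sc5d, a desaturase of the ring, had -0.16.

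**Figure D2:**
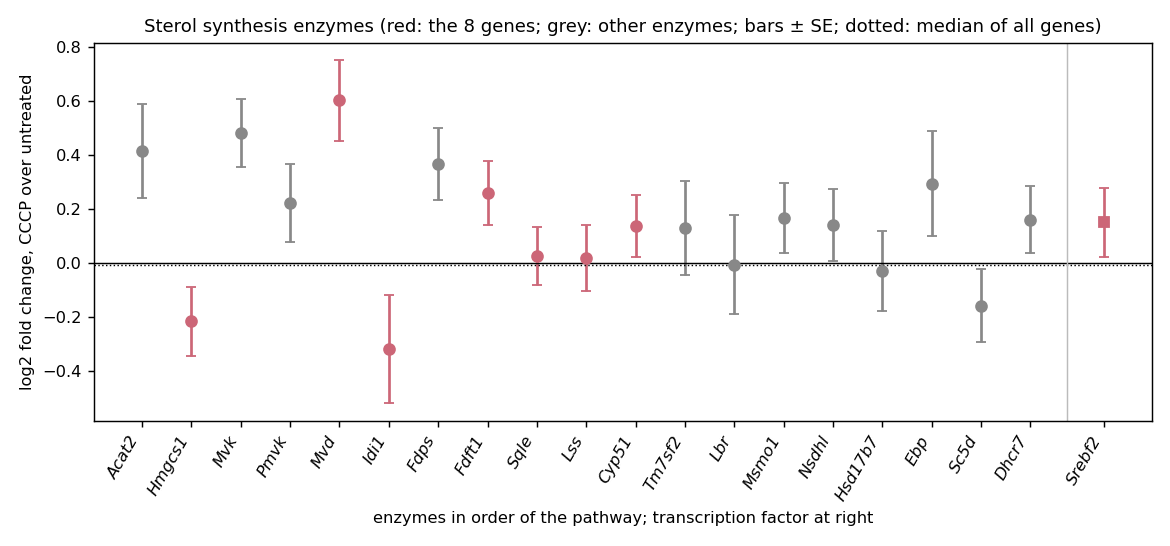
Log2 fold change (CCCP over untreated) with its standard error for 19 sterol synthesis enzymes in the order of the pathway, and for Srebf2 at the right; red marks the 8 genes, grey the other enzymes, and the dotted line the median of all genes tested. The values run from 0.60 for Mvd to -0.32 for Idi1, 14 of the 19 enzymes lie above 0, and none passed the adjusted threshold.

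Of all 56 further genes, 55 could be tested and 0 passed in edgeR. The exception was the intestinal sterol transporter Npc1l1, at 6 to 27 counts. Of the 55, 5 had an unadjusted p under 0.05 with a higher level in CCCP (5.45% of all genes tested) and 5 with a lower level (9.16%). DESeq2 called 2 of them, both lower, among them Elovl6. It called 3.32% of all genes to which it gave an adjusted p (594 genes, 535 of them lower).

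Uptake, trafficking and storage genes had values of both signs. Of the 11 tested, 8 had a log2 fold change above 0 and 3 below, with a median of 0.10. Vldlr, a receptor for VLDL particles, had 103 and 111 CPM against 81.1 and 80.1 CPM, with both CCCP libraries the lower ones. Its log2 fold change was -0.41 (edgeR adjusted p 0.240), on 8917 exon bases. The value was -0.18 with the length trend and -0.25 with the GC trend removed. Npc2, whose product binds cholesterol in the lysosome, had a log2 fold change of 0.39 (edgeR adjusted p 0.342), and Stard4, a cytosolic sterol carrier, -0.30 (edgeR adjusted p 0.362). Npc2 and Stard4 were chosen after their values were seen.

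The genes that hold, move and cut SREBPs had values of both signs. All 9 were tested, 7 had a log2 fold change above 0, and the median was 0.13. Mbtps2 encodes the S2P protease, which makes the second cut. It had 48.9 and 48.1 CPM against 35.2 and 43.5 CPM, a log2 fold change of -0.30 (edgeR adjusted p 0.386) that stood at 0.02 with the GC trend removed. Insig1, a sterol-dependent brake and SREBP target, had a log2 fold change of 0.19, Scap, the escort of SREBPs, 0.19, and Srebf1, the sister factor, 0.11.

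Efflux genes, which the LXR receptors turn on when sterols are plentiful, were led by Abca1, the exporter of cholesterol to apolipoprotein A-I. Abca1 had 169 and 107 CPM without treatment and 90.6 and 68.3 CPM under CCCP. Both CCCP libraries were lower, but the untreated libraries differed widely. The log2 fold change was -0.80 (standard error 0.246, edgeR adjusted p 0.270, DESeq2 adjusted p 0.0572), and -0.42 without untreated replicate 1. At 10524 bases its exons are long, and the value was -0.51 with the length trend removed. Nr1h2, an LXR gene, had 50.4 and 51.6 CPM against 60.2 and 58.2 CPM, a log2 fold change of 0.22 (edgeR adjusted p 0.415). For Nr1h2 the value was 0.11 with the length trend and 0.04 with the GC trend removed. Of the 4 genes of this list, 2 had a log2 fold change above 0 and 2 below.

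Fatty acid synthesis genes, targets of the sister factor SREBP-1, were mostly a little higher in CCCP with 1 gene far from the rest. Of the 10, 7 had a log2 fold change above 0, and the median was 0.17. Elovl6, which lengthens palmitate, had 88.5 and 82.7 CPM without treatment and 58.7 and 50.4 CPM under CCCP. The groups were well apart, with a log2 fold change of -0.65 (standard error 0.128), an edgeR adjusted p of 0.170 and a DESeq2 adjusted p of 0.00994. For Elovl6 the value was -0.54 with the length trend and -0.49 with the GC trend removed. Fads2, a desaturase of long-chain fatty acids, had 145 and 149 CPM against 178 and 173 CPM, a log2 fold change of 0.26 (edgeR adjusted p 0.348). For Fads2 the value was 0.19 with the length trend and 0.13 with the GC trend removed. Fasn and Acly, the fatty acid synthase and the enzyme that supplies its acetyl-CoA, had 0.22 and 0.16.

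**Figure D3:**
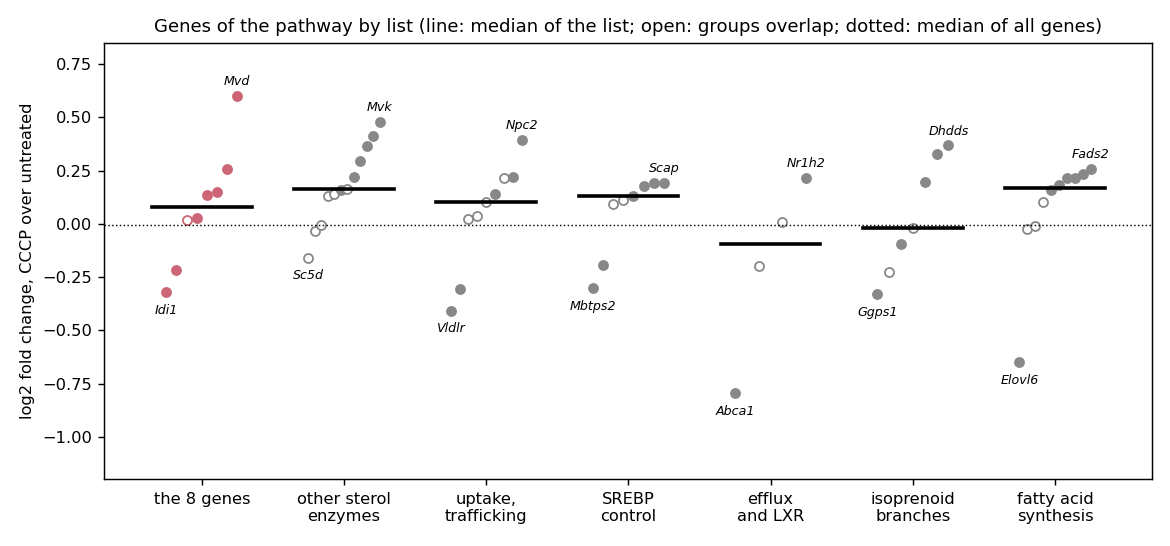
Log2 fold change (CCCP over untreated) of genes tested, by list; filled points are genes whose groups did not overlap, open points those that did, the heavy line is the median of the whole list, which includes genes not drawn, and the dotted line the median of all genes tested. Medians lie between -0.10 and 0.17, and the genes shown farthest from 0 are Abca1 (-0.80) and Elovl6 (-0.65).

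The mean profile of the 8 genes over the 4 libraries, as log2 CPM centred on the mean of each gene, was nearly flat: -0.004 and -0.08 in the untreated and -0.004 and 0.08 in the CCCP libraries. Cyp51 was closest to this mean (Euclidean distance 0.0746), followed by Sqle (0.0877), and Mvd (0.558) and Idi1 (0.519) were farthest. Of 10779 other genes with a mean of at least 10 CPM, those nearest to the mean profile were Vill (distance 0.0106), Mier2 (0.0224), Patj (0.0228), Stx7 (0.0284) and Zc3h4 (0.0292). With 4 libraries and a profile this flat, these distances describe the libraries and carry no test. In all, 8870 of those genes lay nearer to the mean profile than Mvd did.

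Across 14 other settings the direction held for 5 of the 8 genes: Hmgcs1 and Idi1 stayed below 0, and Mvd, Fdft1 and Cyp51 above it. Mvd ran from 0.43 to 0.74, Fdft1 from 0.17 to 0.53, Cyp51 from 0.08 to 0.22, Hmgcs1 from -0.28 to -0.03 and Idi1 from -0.58 to -0.08. Sqle (-0.05 to 0.05), Lss (-0.05 to 0.18) and Srebf2 (-0.01 to 0.25) took both signs.

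**Figure D4:**
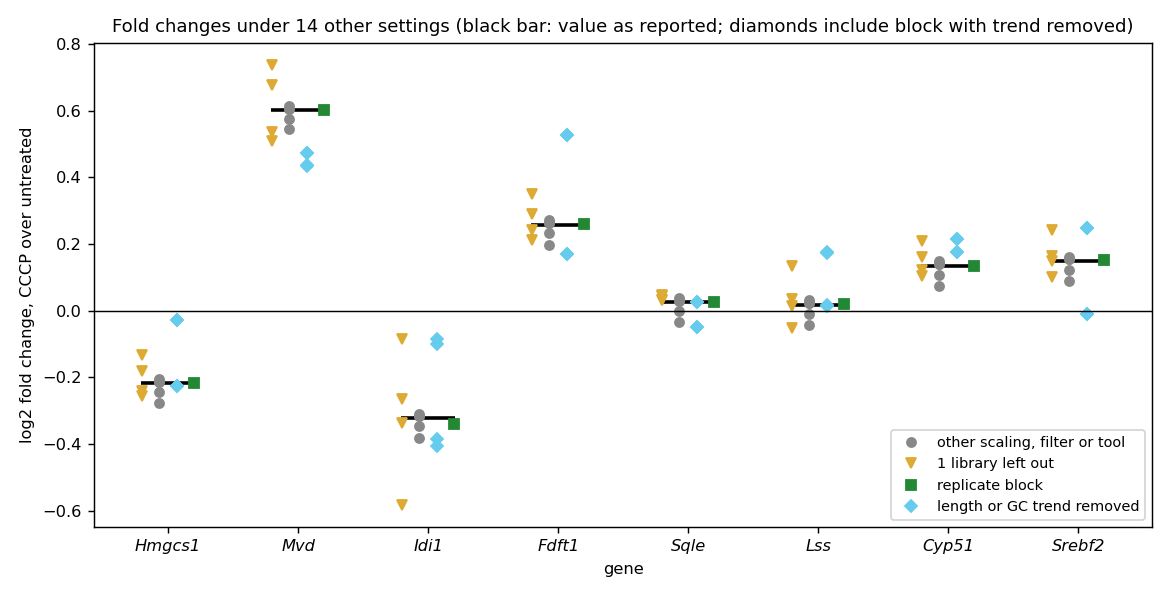
Log2 fold change (CCCP over untreated) of each of the 8 genes as reported (black bar) and under 14 other settings, grouped by kind of setting. Mvd runs from 0.43 to 0.74 over them, and Idi1 has its widest spread, -0.58 to -0.08, when a CCCP library is left out.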

How the data were processed

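Per the file headers, the authors ran featureCounts 2.0.3 on the RefSeq gene models of mm10, and the deposited values are unnormalised read counts. HISAT2, SAMtools, Subread and FastQC are named in the submitters' processing notes. Per the file headers no strand option was given, so reads of overlapping genes on opposite strands are not separated, and reads shared by several genes were left out. Groups and replicate numbers were taken from the sample titles; the 4 libraries held 37360968 to 48827826 counts, so a floor of 3 counts is 0.0599 to 0.0827 CPM.

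All genes were fitted together with edgeR 4.0.16 in R 4.3.3 (glmQLFit and glmQLFTest, TMM, filterByExpr with minimum count 10 and minimum total 15, group as the sole term, two-sided). Benjamini-Hochberg adjustment ran over all 19837 genes with a threshold of 0.05. The standard error is the log2 fold change divided by the square root of F, and the 95% interval uses the degrees of freedom of the test. With 2 against 2 libraries an exact permutation test cannot go below 0.333, so none is given. DESeq2 1.42.0 was an alternative, as were RLE scaling, no scaling, other filters, leaving out each library, the replicate block, and lowess trends on exon length or, chosen after seeing the data, GC content (GENCODE M21 transcripts, 90.4% of genes). The code was tested on simulated data.

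The 8 genes and all lists were chosen with earlier results of these data known. From each list of pathway genes the 2 with the smallest unadjusted p were named, and the 5 genes nearest in Euclidean distance; others are named for their role or, where said, after their values were seen. Some genes of these lists enter the counts and medians but are not reported here. Marker lists were hepatic, steroidogenic, neural, blood progenitor, endothelial, erythroid, macrophage and mesenchymal.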

Additional observations from a re-analysis of the deposited data

How the results depend on the processing

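The number of genes called, 0 in edgeR, was 1107 with a filter of only 1 count and 594 in DESeq2, and 10 to 46 with 1 library left out; the cause was not tested. Of the 8 genes, 1 (Mvd, adjusted p 0.0368) was called with the filter of 1 count, where 1107 of 32261 genes tested were called. Of the further pathway genes, 3 were called with that filter, among them Abca1 and Elovl6, and 2 in DESeq2. The median log2 fold change of the 8 genes, 0.08, was 0.17 with the length trend removed and 0.073 to 0.17 with 1 library left out, the highest without untreated replicate 1.

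Libraries of the same number shared part of their deviation from the group means (correlation 0.36 across genes), but the labels give a number no meaning, so the replicate block was not used in the main test. With the replicate block 2118 genes were called (754 higher, 1364 lower; 10.7% of those tested), 1 of the 8 (Mvd, adjusted p 0.0128) and 8 further pathway genes (4 higher: Acat2, Mvk, Npc2 and Dhdds; 4 lower, among them Vldlr, Abca1 and Elovl6). The replicate block with exon length corrected called 1242 of 19837 genes tested. Among them were 2 of the 8 (Fdft1 and Mvd, adjusted p 0.0125 and 0.0432) and 5 further pathway genes. The median of the 8 was 0.18 in that fit. The replicate block with GC content corrected, an alternative added after the data were seen, called 662 of 17929 genes tested. It called 0 of the 8 and 3 further pathway genes. The adjusted p of Mvd ran from 0.0128 to 0.809 over all settings.

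Among the named genes, signs turned 20 times, and the values after the turn were these. Sqle was -0.033 without library scaling, -6e-04 with a minimum count of 50, -0.048 with the length trend removed and -0.048 with the block as well. Lss was -0.042 without scaling and -0.0085 with the minimum of 50, and ran from -0.050 to 0.14 with 1 library left out, the lowest without untreated replicate 2. Stx7 was -0.0064 without scaling, -0.034 with the length trend removed and -0.033 with the block as well. With the GC trend removed, alone and with the block, Srebf2 was -0.011 and -0.0092, Mbtps2 0.019 and 0.013, Vill -0.061 and -0.062, Mier2 -0.097 and -0.099, and Zc3h4 -0.079 and -0.079. A filter of 1 count gave Npc1l1 a test on 6 to 27 counts; each other pathway gene named had more.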

Other observations

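Isoprenoid branches leave the pathway before squalene and supply dolichol, ubiquinone and the lipid anchors of proteins. Of 7 genes, 3 had a log2 fold change (CCCP over untreated) above 0 and 4 below, with a median of -0.02, and none passed in edgeR or DESeq2. Dhdds, a subunit of the enzyme that makes the dolichol chain, had 53.0 and 52.5 CPM without treatment and 70.1 and 66.05 CPM under CCCP, a log2 fold change of 0.37 (standard error 0.111, edgeR adjusted p 0.264). Ggps1, which makes geranylgeranyl diphosphate for protein anchors, had 66.2 and 70.9 CPM against 52.8 and 56.3 CPM. Its log2 fold change was -0.33 (standard error 0.115, edgeR adjusted p 0.296). The value of Ggps1 was -0.01 with the GC trend and -0.17 with the length trend removed. Those of Dhdds were 0.28 and 0.34. Fntb and Fnta, the subunits of farnesyltransferase, had 0.33 and 0.20, and Pdss1 and Pdss2, which make the tail of ubiquinone, -0.22 and -0.02. The groups did not overlap for 5 of the 7 (Dhdds, Ggps1, Fnta, Fntb and Nus1), against 48.8% of all genes tested.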
